A study of Mus musculus and Sus scrofa with 30 samples.

Results

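The genes described here are 8 that form the core of peroxisome proliferator-activated receptor signalling: the receptors Pparg, Ppara and Ppard, their retinoid X receptor partners Rxra, Rxrb and Rxrg, the corepressor Ncor1 and the coactivator-binding Mediator subunit Med1. They were taken by gene symbol, ignoring case. All 8 were found among the 24843 genes listed for mouse 3T3-L1 cells and among the 34307 listed for porcine DFAT cells. Gene expression was measured by bulk mRNA sequencing on day 5 of adipogenic differentiation in 30 libraries, 15 per cell system, in 5 groups of 3. The groups received DMSO as vehicle, dicoumarol, magnolol, dicoumarol plus magnolol (the combination) or rosiglitazone, at doses that the labels do not give.

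Every group of a system, vehicle included, received that system's induction medium. For 3T3-L1, an established mouse embryonic fibroblast line that can turn into fat cells, it held insulin (0.75 µg/mL), dexamethasone (75 nM) and the phosphodiesterase inhibitor IBMX (37.5 µM) with 10% serum. For DFAT, cells obtained by letting mature fat cells of pig subcutaneous fat dedifferentiate, it held dexamethasone (0.5 µM), IBMX (12.5 µM), biotin (20 µM) and pantothenate (10 µM) with 2% serum. The labels do not say how many pigs the DFAT cells came from or whether libraries of a group came from separate cultures, so p-values measure the spread between these libraries, which may be technical.

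PPARγ, the protein of Pparg, is the nuclear receptor without which fat cells do not form. It binds DNA as a dimer with an RXR, on elements built from repeated AGGTCA half-sites. In the absence of an activating ligand such dimers can recruit corepressor complexes such as that built on NCoR1, and ligand binding favours coactivators, among them Mediator, whose subunit MED1 contacts the receptor directly. Rosiglitazone is a synthetic PPARγ agonist of the thiazolidinedione class. Magnolol is a neolignan of magnolia bark that has been described as a PPARγ ligand, and dicoumarol is a coumarin best known as a vitamin K antagonist.

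Mouse Pparg is transcribed from several starts. RefSeq (GRCm38.p6) gives 3 for it, spread over 60922 bases of chromosome 6, all on the plus strand, and the last of them is known to yield the fat-cell isoform PPARγ2. Their promoters, 250 bases before to 50 after each start, are shown because the deposited gene-level values sum over all of them and do not tell the isoforms apart. Capitals mark matches, on either strand, to the nuclear receptor half-site AGGTCA or to TTGCNNAA, a C/EBP motif.
Pparg start 1, chr6:115360894-115361193: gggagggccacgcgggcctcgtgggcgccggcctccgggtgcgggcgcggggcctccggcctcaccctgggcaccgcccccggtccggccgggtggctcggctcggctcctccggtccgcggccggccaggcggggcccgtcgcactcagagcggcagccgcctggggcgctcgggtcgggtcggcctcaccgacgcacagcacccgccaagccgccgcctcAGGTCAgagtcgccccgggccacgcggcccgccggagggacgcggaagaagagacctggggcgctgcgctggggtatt
Pparg start 2, chr6:115362099-115362398: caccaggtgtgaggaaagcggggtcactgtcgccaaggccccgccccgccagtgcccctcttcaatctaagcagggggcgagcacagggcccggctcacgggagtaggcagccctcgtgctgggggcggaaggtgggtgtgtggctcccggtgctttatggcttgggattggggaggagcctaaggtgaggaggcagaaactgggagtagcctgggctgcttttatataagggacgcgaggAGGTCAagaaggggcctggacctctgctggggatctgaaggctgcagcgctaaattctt
Pparg start 3, chr6:115421816-115422115: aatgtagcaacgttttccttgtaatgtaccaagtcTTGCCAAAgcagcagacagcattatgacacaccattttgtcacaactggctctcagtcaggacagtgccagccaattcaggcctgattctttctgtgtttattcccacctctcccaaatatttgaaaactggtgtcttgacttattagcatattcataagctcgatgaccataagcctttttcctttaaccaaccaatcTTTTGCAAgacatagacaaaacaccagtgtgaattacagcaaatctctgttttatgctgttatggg
The first and second promoters each hold 1 half-site and no C/EBP match, and the third holds 2 C/EBP matches and no half-site. Over all 32851 promoters of 300 bases in the same table, 16.3% hold a half-site and 10.8% a C/EBP match. The full PPAR/RXR element, 2 AGGTCA half-sites in direct repeat 1 base apart, occurs in 0.0396% of them and in none of the 3 Pparg promoters. These matches are letters in a window, and binding was not measured.

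Values are normalized counts, the reads of a gene divided by its library's size factor. By the values' own steps, the libraries held an estimated 22.8 to 30.7 M reads (M, 1e6 reads) assigned to genes in 3T3-L1 and 44.8 to 70.5 M in DFAT. Of the 8 genes, 7 reached the minimum mean of 10 needed for testing in each system, the exception being Rxrg. Fold changes are differences on the log2(normalized count + 1) scale from limma, with its standard error (SE), and adjusted p-values are Benjamini-Hochberg values over 15723 genes in 3T3-L1 and 14819 in DFAT. A gene is said to have risen or fallen where the adjusted p was under 0.05.

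The fat-cell markers moved with the treatments in both systems. In 3T3-L1, the summed level of 7 adipocyte markers (all detected) was 3516 to 7788 in vehicle and 163300 to 297700 with rosiglitazone, while that of 8 fibroblast markers was 238800 to 263400 and 139100 to 180800. With dicoumarol, magnolol and the combination the adipocyte sum was 10230 to 21430, 26000 to 40400 and 34320 to 60950. In DFAT the adipocyte sum was 1421 to 1627 in vehicle and 21650 to 23260 with rosiglitazone, with RETN at 0 throughout, and the fibroblast sum was 1592000 to 1744000 and 1238000 to 1377000. The DFAT adipocyte sum was 3276 to 3567 with dicoumarol, 6743 to 7777 with magnolol and 12930 to 14230 with the combination. With the other DFAT treatments the fibroblast sum was 2225000 to 3002000, and 4 smooth muscle markers summed to 56590 to 72220 in vehicle, 65610 to 77840 with dicoumarol, 91170 to 98440 with magnolol, 104600 to 118800 with the combination and 79980 to 129900 with rosiglitazone. In 3T3-L1 the 4 smooth muscle markers, of which Cnn1 and Rgs5 averaged under 10, summed to 2793 to 5447 in vehicle. They summed to 2298 to 3324 with dicoumarol and 1922 to 3740 with magnolol. With the combination and rosiglitazone the sums were 1568 to 2298 and 1320 to 2502. Macrophage markers summed to at most 104.4 and endothelial markers to at most 236.2 in any library. In bulk samples, a change in the share of fat cells and a change in RNA per cell cannot be told apart, and the part of this shift in the results below was not tested.

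Pparg, the receptor at the centre of fat-cell formation (ENSMUSG00000000440, chromosome 6, 115337912 to 115467360 in the deposited coordinates), rose with the combination and with rosiglitazone in 3T3-L1. In the vehicle libraries its normalized counts were 1353, 1149 and 1247. With dicoumarol they were 1624, 1184 and 1484, which overlaps vehicle. Magnolol gave 1916, 1567 and 1789, the combination 2192, 1700 and 2006, and rosiglitazone 2052, 1780 and 2057, so that all 9 of these libraries lay above all 3 vehicle libraries. In each group replicate 2 was the lowest of the 3. The log2 fold change against vehicle was 0.65 (SE 0.126) with both the combination (adjusted p = 0.00582, limma) and rosiglitazone (0.000716), 0.49 with magnolol (0.0814) and 0.19 with dicoumarol. Same-numbered 3T3-L1 libraries deviated together, and with the replicate number as a block the magnolol change had an adjusted p of 0.000249. Without combination replicate 1 the combination value was 0.57 with an adjusted p of 0.0529.

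Porcine PPARG (ENSSSCG00000011579, chromosome 13, 68302322 to 68433944) rose with 3 of the 4 treatments. Vehicle libraries gave 969, 910 and 901 normalized counts, and dicoumarol 992, 1091 and 967, a near-complete separation broken by 1 library on each side. Magnolol gave 1138, 1251 and 1149, the combination 1454, 1403 and 1474, and rosiglitazone 1378, 1233 and 1280. The 3 combination libraries were above all other DFAT libraries. The log2 fold changes were 0.35 with magnolol (adjusted p = 0.00539, limma), 0.64 with the combination (6.04e-06) and 0.48 with rosiglitazone (9.83e-05), each with an SE of 0.0687, against 0.13 (0.56) with dicoumarol.

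**Figure D1:**
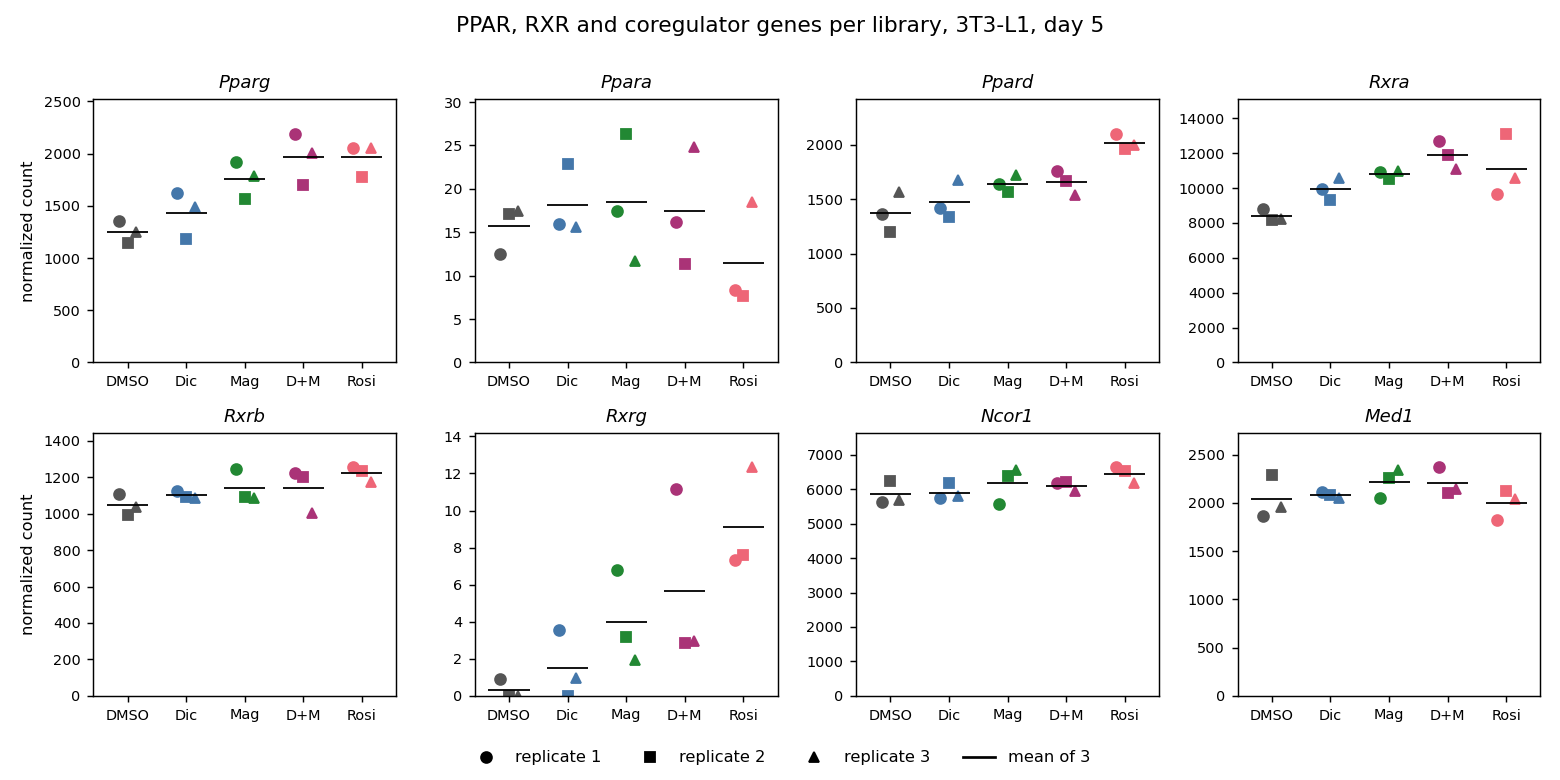
Normalized counts of the 8 genes in the 15 3T3-L1 libraries by treatment (DMSO is vehicle, Dic dicoumarol, Mag magnolol, D+M the combination, Rosi rosiglitazone), each panel with its own axis from 0. Symbols are the 3 replicates of a group and bars their mean; for Pparg, replicate 2 is the lowest of each group, and for Ppard the rosiglitazone libraries (1958 to 2102) lie above all others.

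The combination was also compared with its components. In DFAT, PPARG was higher with the combination than with dicoumarol alone by 0.51 (adjusted p = 0.000233, limma), the only 1 of the 7 tested genes to pass, where 2.35% of all genes did. Against magnolol alone the difference was 0.29 (adjusted p = 0.0683, or 0.0248 with the replicate block, since same-numbered libraries of these 2 groups deviated together). There 0 of the 7 passed without the block, where 0.621% of all genes did. In 3T3-L1, Pparg was 0.46 above dicoumarol alone (adjusted p = 0.2, and 0.000753 with the block). None of the 7 passed there, where 0.0254% of genes did, nor against magnolol alone, where 0% did (limma; 336 genes had an unadjusted p under 0.05).

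Whether the combination differed from the sum of the single log2 changes was tested as an interaction. For Pparg it was -0.03 in 3T3-L1 and 0.16 (SE 0.0972) in DFAT, and 0 of the 7 genes passed in either system by limma. Among all genes, 0% passed in 3T3-L1, where 78 had an unadjusted p under 0.05, and 0.0810% in DFAT.

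Ppard encodes the broadly expressed PPARδ, known for its role in fatty acid oxidation. It rose with rosiglitazone in both systems and passed with none of the other treatments. In 3T3-L1 (ENSMUSG00000002250, chromosome 17, 28451674 to 28520448) the vehicle libraries gave 1359, 1197 and 1563 normalized counts and the rosiglitazone libraries 2102, 1958 and 1994, above every library of the other 4 groups. The change was 0.56 (SE 0.105; adjusted p = 0.000529, limma), beside 0.26 with magnolol (0.37) and 0.27 with the combination (0.168). Rosiglitazone stood 0.29 above the combination (adjusted p = 0.0659, and 0.0199 with the replicate block).

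DFAT PPARD (ENSSSCG00000001539, chromosome 7, 31222585 to 31295211) was 3767, 3496 and 3170 in vehicle and 5078, 5531 and 4520 with rosiglitazone, again above all 12 other libraries. The change was 0.53 (SE 0.0957; adjusted p = 0.001, limma). Magnolol (3473, 3428 and 3054) and the combination (3608, 3336 and 2998) overlapped vehicle, each with a log2 change of -0.07. Against the combination, rosiglitazone was 0.60 higher (adjusted p = 0.000254). PPARD was the only 1 of the 7 genes to pass in that comparison, where 17.0% of all genes did. In the same comparison in 3T3-L1 none of the 7 passed, against 18.3% of all genes. PPARG and PPARD thus differed in the order of their DFAT groups: PPARG was highest with the combination, at 1444 ± 36.4 (SD, n = 3) against 1297 ± 73.6 with rosiglitazone, although this difference of -0.16 did not pass (adjusted p = 0.138, limma), and PPARD was highest with rosiglitazone.

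Ppara, the receptor of hepatic fatty acid oxidation, was scarce in 3T3-L1 and passed with no treatment in either system. The 15 3T3-L1 libraries ranged from 7.61 to 26.4 normalized counts, with all groups overlapping vehicle, and the rosiglitazone change was -0.50 (SE 0.391; adjusted p = 0.325, limma). The 15 DFAT libraries ranged from 683 to 926, and PPARA changes lay between -0.02 and 0.16.

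**Figure D2:**
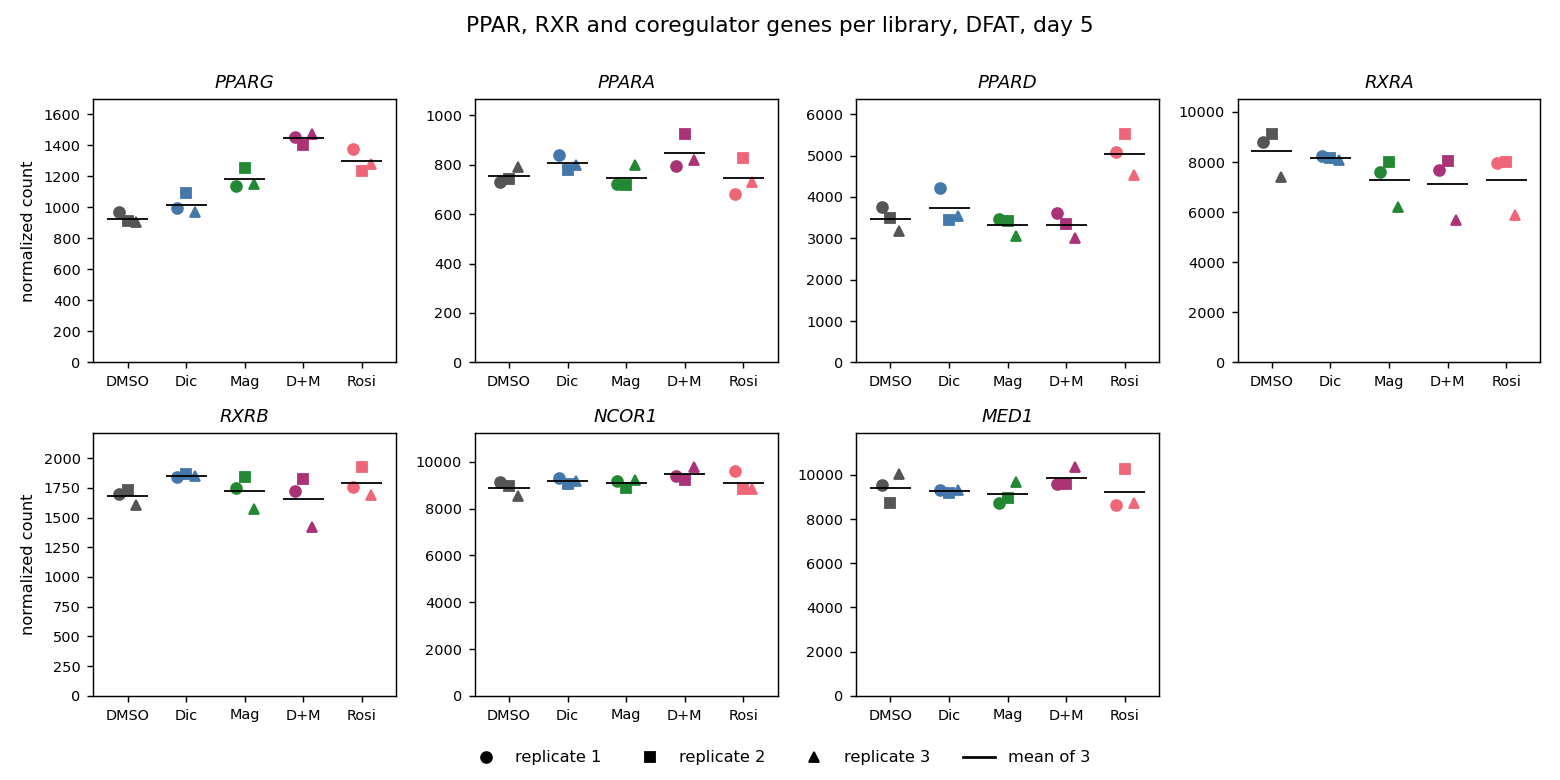
Normalized counts of the 7 detected genes in the 15 DFAT libraries, drawn as for 3T3-L1 (RXRG is at 0 in every library and has no panel). PPARG is highest with the combination, PPARD with rosiglitazone (4520 to 5531), and RXRA replicate 3 is the lowest library of each group.

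Rxra encodes RXRα, the usual dimer partner of PPARγ in fat cells. In 3T3-L1 it rose with the combination and rosiglitazone, and in DFAT it passed with no treatment. The vehicle libraries of 3T3-L1 (ENSMUSG00000015846, chromosome 2, 27566452 to 27652969) gave 8796, 8177 and 8243 normalized counts. Dicoumarol gave 9932, 9325 and 10585, magnolol 10918, 10508 and 11000, the combination 12677, 11923 and 11076, and rosiglitazone 9642, 13126 and 10576. All 12 treated libraries were above the highest vehicle library. The changes were 0.24, 0.36 (adjusted p = 0.133), 0.50 (0.00899) and 0.39 (0.00645) in that order, with an SE of 0.103 in limma. With the replicate block the magnolol value also passed (0.0431). The combination call was lost without combination replicate 1 (0.45, adjusted p = 0.0689), and the rosiglitazone call was lost when only the compared groups were fitted (0.0526).

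In DFAT, RXRA (ENSSSCG00000038220, chromosome 1, 273705505 to 273797620) ran the other way in its means. The libraries were 8803, 9137 and 7407 in vehicle, 8244, 8180 and 8065 with dicoumarol, 7612, 7994 and 6204 with magnolol, 7680, 8041 and 5672 with the combination and 7978, 7991 and 5902 with rosiglitazone. Each treated group overlapped vehicle, and the third replicate was the lowest in all 5 groups. The changes were -0.04, -0.22, -0.26 and -0.22 (SE 0.133), and the lowest adjusted p was 0.254 (limma without the replicate block).

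The difference between the 2 systems in the response of Rxra was itself tested, by subtracting the 3T3-L1 from the DFAT log2 fold change in 1 model of all 30 libraries over 9369 genes with a shared symbol. The systems were normalized separately, so only changes within each were set against each other, and the species, the medium and the cell source all differ between them. The difference was -0.75 (SE 0.178; adjusted p = 0.00575, limma) for the combination and -0.61 (0.0082) for rosiglitazone. It was -0.58 (0.0725) for magnolol and -0.29 for dicoumarol. For the combination 1 of the 7 genes passed, where 11.6% of genes did, and for rosiglitazone 1 of 7, where 38.7% did. For magnolol and dicoumarol 0 of 7 passed, where 3.28% and 0.0854% of genes did. The Pparg response differed by -0.05, -0.14, -0.01 and -0.17 for dicoumarol, magnolol, combination and rosiglitazone (SE 0.146). None of these passed, which does not show that the responses are equal.

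Rxrb, an RXR gene expressed in most tissues, passed with no treatment. In 3T3-L1 its libraries ranged from 995 to 1256 normalized counts, and the rosiglitazone libraries (1256, 1235 and 1176) were above the vehicle libraries (1108, 995 and 1039). That change was 0.22 (SE 0.091; adjusted p = 0.0615 in limma, and 0.0174 with the replicate block). In DFAT, RXRB ranged from 1421 to 1925 and its changes from -0.03 to 0.14, none of which passed.

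Rxrg, the RXR of muscle and a few other tissues, was near the detection limit in 3T3-L1 and its reads were more numerous with treatment. The 3 vehicle libraries held 1 read in all, the dicoumarol libraries 5, magnolol 12, the combination 17 and rosiglitazone 24. Adjusted for depth, the ratio to vehicle was 4.91 (exact 95% interval 0.55 to 232) for dicoumarol, 12.6 (1.86 to 539) for magnolol, 17.6 (2.75 to 734) for the combination and 28.2 (4.60 to 1159) for rosiglitazone. These intervals cover counting error only and rest on the 1 vehicle read. The rosiglitazone libraries gave 7.34, 7.61 and 12.3 normalized counts against 0.891, 0 and 0 in vehicle, and did not overlap them. Fitted without the minimum level, the rosiglitazone change was 3.00 (SE 0.599; adjusted p = 0.00125, limma), a size that depends on the pseudocount of 1. The dicoumarol, magnolol and combination changes of 0.75, 1.89 (adjusted p = 0.259) and 2.21 (0.0608) did not pass in that fit. RXRG was listed at 0 in all 15 DFAT libraries, where 3 reads would give 2.54 to 3.85 normalized counts.

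Neither of the 2 coregulators passed in a comparison with vehicle in either system. Ncor1, the scaffold of a histone deacetylase corepressor complex, gave 5623, 6249 and 5687 normalized counts in 3T3-L1 vehicle and 6643, 6516 and 6170 with rosiglitazone, a change of 0.14 (SE 0.0805; adjusted p = 0.182, limma). Over all 15 libraries it spanned 5565 to 6643. DFAT NCOR1 spanned 8517 to 9775, with changes of 0.04 to 0.09 (SE 0.0523). Med1, the Mediator subunit that nuclear receptors bind, was 1867, 2295 and 1959 in 3T3-L1 vehicle and 1825, 2119 and 2041 with rosiglitazone, a change of -0.03 (SE 0.093). DFAT MED1 changes ran from -0.05 to 0.06 (SE 0.0705).

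**Figure D3:**
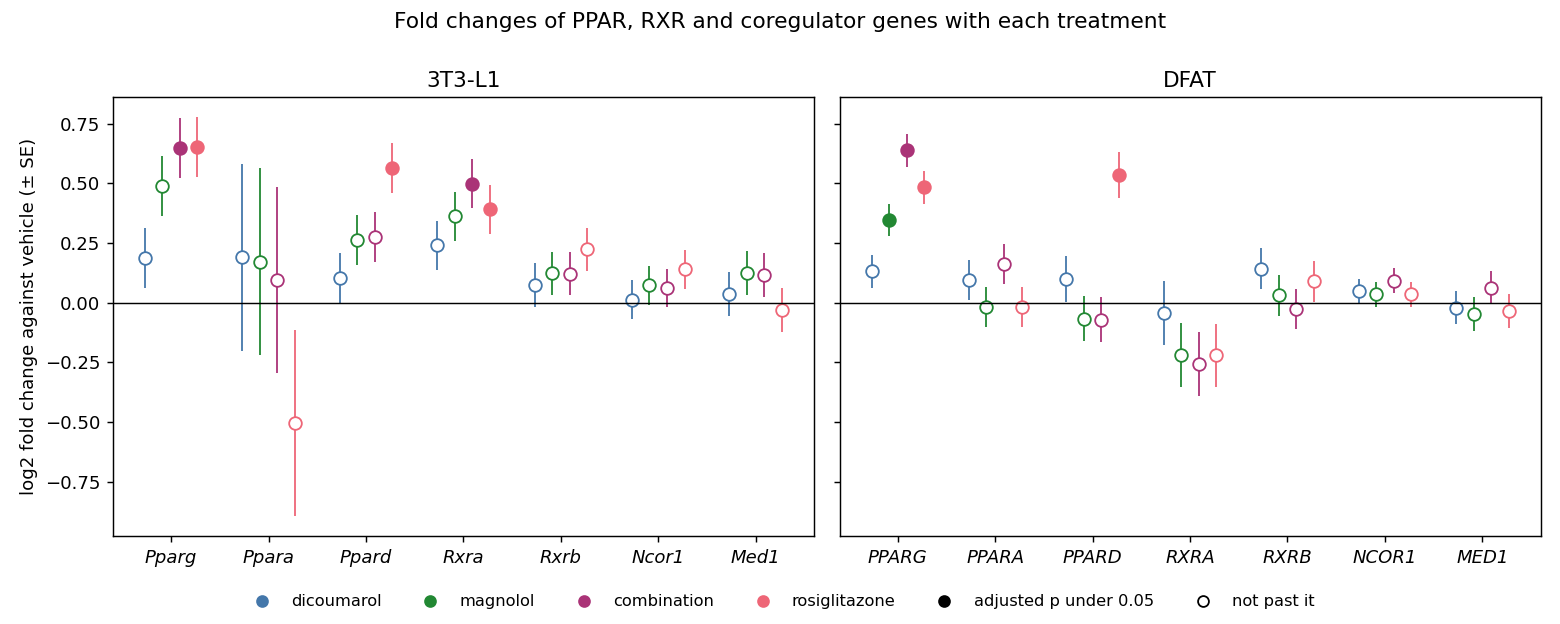
log2 fold changes against vehicle (vertical axis, ± SE from limma) of the 7 tested genes in 3T3-L1 (left) and DFAT (right), by treatment; filled points have an adjusted p under 0.05. The Rxra points are above 0 in 3T3-L1 and below 0 in DFAT, where none is filled, and the wide Ppara errors in 3T3-L1 go with its low level.

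Counted over the 7 tested genes, 0 passed with dicoumarol in 3T3-L1, where 0% of all genes did (limma; 393 genes had an unadjusted p under 0.05 and the lowest adjusted p was 0.907). Likewise 0 passed with magnolol, where 1.23% did. The combination moved 2 (Pparg and Rxra), where 5.22% of all genes passed. Rosiglitazone moved 3 (Pparg, Ppard and Rxra), where 40.1% passed, so that this count lies near the background. These counts are without the replicate block. With it, Pparg and Rxra also passed with magnolol in 3T3-L1, where 4.96% of all genes did. Rxrb was added with rosiglitazone, where 49.8% passed. The combination calls stayed the same, where 13.5% passed, and 0 passed with dicoumarol, where 0.502% did. In DFAT the counts without the block were 0 with dicoumarol, where 1.94% of genes passed, 1 for magnolol (4.22%), 1 for the combination (10.2%) and 2 for rosiglitazone (10.8%). The 4 treatments share the same vehicle libraries, so these counts are not independent. Without the block, every member that passed in a comparison with vehicle was higher with treatment.

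Levels can be compared between genes only per length, here as normalized counts per kb of merged exon in mouse (GENCODE M21). Merged exons can be longer than the transcripts expressed, and the SDs and overlaps below hold no error in length. The order of genes at close levels can therefore depend on the length used. Rxra was the most abundant in 3T3-L1 vehicle, at 1539 ± 62.2 (SD, n = 3). Ncor1 (457 ± 26.9) and Pparg (423 ± 34.6) followed with overlapping libraries, then Rxrb (264 ± 14.4) and Med1 (233 ± 25.7), which also overlapped. Ppard was at 183 ± 24.4, Ppara at 4.09 ± 0.725 and Rxrg at 0.129. With rosiglitazone, Pparg (665 ± 53.7) lay above Ncor1 (503 ± 19.1) without overlap, Ppard (269 ± 9.94) lay above Med1 (228 ± 17.4), and Rxrg (3.96 ± 1.23) overlapped Ppara (3.00 ± 1.59). Rxra remained far above its partners at 2035 ± 330. No pig exon lengths were used, so no such order is given for DFAT.

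**Figure D4:**
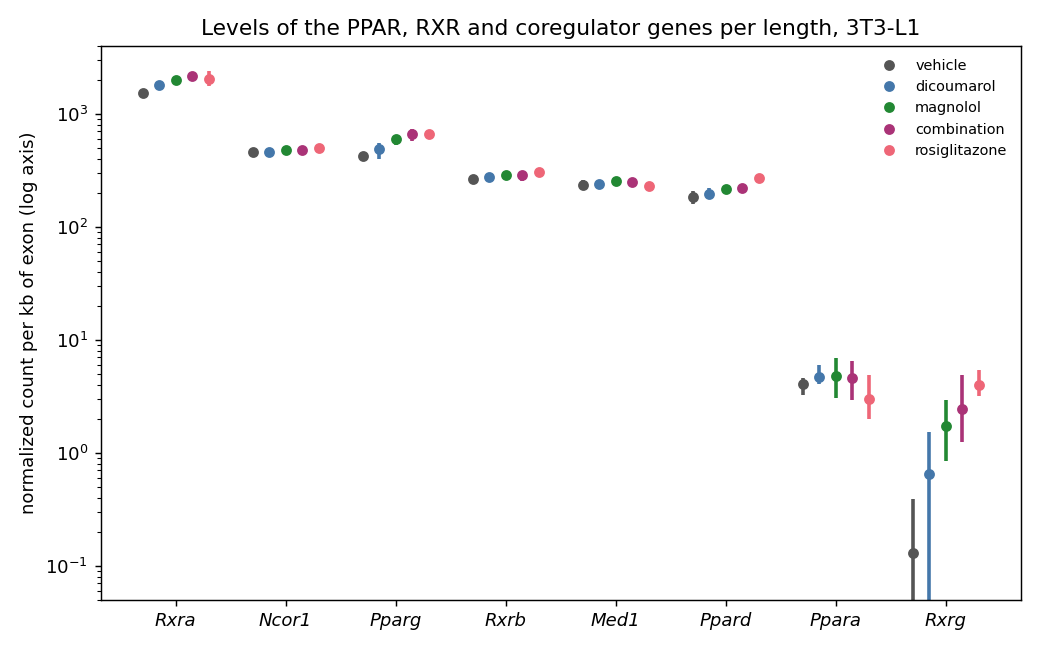
Normalized counts per kb of exon (log axis) of the 8 genes in 3T3-L1 by treatment; points are means of 3 libraries and lines run from the lowest to the highest library, reaching the lower edge where a library was at 0. Pparg lies beside Ncor1 in vehicle and above it with rosiglitazone (665 against 503).

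The genes whose profile over the 15 libraries was most like that of Pparg were sought by the root mean square (RMS) difference of centred log2 values, as a description without a test. In 3T3-L1 these were Epas1, which encodes the hypoxia-inducible factor HIF-2α (RMS difference 0.0845), Uck1, a uridine-cytidine kinase (0.0903), and Ralgapa2, a subunit of a Ral GTPase-activating complex (0.1001), of 11577 genes ranked. Pparg itself varied with an RMS of 0.294. In DFAT they were APEX2, a DNA repair nuclease (0.0732), IFT52, of the intraflagellar transport machinery (0.0817), and PON2, a paraoxonase (0.0943), of 9932 genes, where PPARG had an RMS of 0.238. No gene was among the 3 in both systems.

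Lists of genes around the receptors were counted in the same fits. Of PPAR target genes, such as those for lipid droplet, fatty acid uptake and glyceroneogenesis proteins, 25 were tested in 3T3-L1. Magnolol raised 16, the combination 20 and rosiglitazone 21, where 1.07%, 3.86% and 20.3% of all genes rose, and none fell. With the replicate block, 22 rose and 2 fell with rosiglitazone, where 24.4% of all genes rose and 25.4% fell. The list medians were 1.20, 1.58 and 2.79, where the median over all genes was within 0.01 of 0. With dicoumarol 0 passed, at a median of 0.68, and with the replicate block 12 did, where 0.502% of all genes passed. The magnolol count moved with single libraries and with the variance model. It fell to 10 with no variance trend, to 7 or 10 when vehicle replicate 2 or 3 was left out, and to 4 or 8 when this was done for magnolol replicate 1 or 3. In DFAT 24 were tested. Dicoumarol raised 8, magnolol 14, the combination 18 and rosiglitazone 20, where 0.911%, 2.96%, 6.11% and 5.80% of all genes rose. None fell, and the medians in this order were 0.37, 0.55, 1.07 and 1.83. The target Pck1, the enzyme of glyceroneogenesis, averaged 0.582, 7.30, 12.6, 18.8 and 78.2 normalized counts in 3T3-L1 vehicle, dicoumarol, magnolol, combination and rosiglitazone libraries, and its DFAT orthologue PCK1 averaged 13.7, 34.0, 184, 457 and 1967. In 3T3-L1 the Pck1 vehicle mean lay under the level of 3 reads (2.57 to 3.71 normalized counts). Without its rosiglitazone libraries Pck1 would not have reached the minimum mean of 10 there. The summed adipocyte markers (above) were higher in the same libraries. Most of those markers are themselves on this target list, so the sum is not a separate observation.

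Of the other coactivators of PPARs, 15 were tested in 3T3-L1 and 14 in DFAT. The PGC-1 genes, whose proteins drive mitochondrial and oxidative programmes, differed between the systems in which member passed. In 3T3-L1, Ppargc1b averaged 45.3 normalized counts in vehicle, 172 with the combination and 478 with rosiglitazone, rises of 1.90 (adjusted p = 0.000912, limma) and 3.32 (3.1e-07). Ppargc1a there averaged 132 and 196 in vehicle and rosiglitazone and did not pass (adjusted p = 0.337). In DFAT it was PPARGC1A that rose, from a mean of 3.33 in vehicle to 20.4 with the combination (2.70, adjusted p = 0.00313) and 64.9 with rosiglitazone (4.32, 2.61e-05), while PPARGC1B was 254 in vehicle and 276 with rosiglitazone (adjusted p = 0.748). The DFAT vehicle mean of PPARGC1A lay near the level of 3 reads (2.54 to 3.85 normalized counts). The sizes of its changes therefore depend on the pseudocount of 1. Whether the responses of the PGC-1 genes differ between the systems was not tested. The p160 coactivator genes Ncoa1 and Ncoa3 moved oppositely with rosiglitazone in 3T3-L1, by 0.55 (adjusted p = 0.000399) and -1.17 (1.51e-05).

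In all, 3 coactivators rose and 6 fell with rosiglitazone in 3T3-L1, where 40.1% of all genes passed. With magnolol (1.23% of all genes) and the combination (5.22%), 2 rose each, Ncoa1 and Ppargc1b, and leaving out single libraries left as few as 0 and 1 of these. Fitting only the compared groups left 5 of the 9 rosiglitazone calls, as did leaving out rosiglitazone replicate 1. In DFAT 2 rose with the combination, where 10.2% of all genes passed, and 1 rose and 1 fell with rosiglitazone, where 10.8% did. The combination count was 1 without any of 5 single libraries, with no minimum level and with no variance trend, and the rosiglitazone total was 1 with only the compared groups. Of the corepressors, 10 were tested in 3T3-L1 and 9 in DFAT. With rosiglitazone 3 rose in 3T3-L1, among them Hdac2, a histone deacetylase (0.39, adjusted p = 0.00234, limma), where 20.3% of all genes rose, and 0 rose in DFAT. With only the compared groups fitted, 1 of the 10 rose. No corepressor passed with the other treatments.

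Mediator subunits other than Med1 numbered 29 in 3T3-L1 and 28 in DFAT. In 3T3-L1 8 rose and 3 fell with rosiglitazone, a share near the 40.1% background, among them Med22 (0.57) and the kinase-module gene Cdk8 (0.58). The total of 11 fell to 6 or 7 when vehicle replicate 2 or 3 was left out, to 4 when this was done for rosiglitazone replicate 1, and to 6 when only the compared groups were fitted. In DFAT 1 rose with rosiglitazone, MED10 (0.33, adjusted p = 0.00194, limma), where 10.8% of all genes passed. No subunit passed with any other treatment in either system.

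Other receptors that dimerize with RXR numbered 7 tested genes in 3T3-L1 and 9 in DFAT. In 3T3-L1, Nr1h3, which encodes the oxysterol receptor LXRα, rose by 1.73 with the combination (adjusted p = 0.00166, limma) and by 2.15 with rosiglitazone (1.94e-05), from a vehicle mean of 130 to 443 and 578 normalized counts. The vitamin D receptor gene fell with rosiglitazone in 3T3-L1 (Vdr, -1.28, adjusted p = 3.97e-05) and with both the combination (-0.52, 0.000314) and rosiglitazone (-0.42, 0.00182) in DFAT (VDR). The thyroid hormone receptor gene THRB rose in DFAT by 0.38 (0.00304) and 0.39 (0.00238) with those treatments. In all, 1, 1 and 3 of the 7 passed in 3T3-L1 for magnolol, the combination and rosiglitazone, and 0, 3 and 3 of the 9 in DFAT. The shares of all genes were 1.23%, 5.22% and 40.1% in 3T3-L1 and 4.22%, 10.2% and 10.8% in DFAT, so that the 3T3-L1 rosiglitazone count lies near its background. The magnolol call, Nr1h3, was lost when any vehicle replicate or magnolol replicate 1 or 3 was left out, or with no variance trend. With the replicate block, 3T3-L1 had 2 and 3 calls with magnolol and the combination, where 4.96% and 13.5% of all genes passed.

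Regulators that act upstream of Pparg, 14 tested in each system, moved in both directions. With rosiglitazone 5 rose and 3 fell in 3T3-L1, where 40.1% of all genes passed, and 3 rose and 2 fell in DFAT, where 10.8% did. With the replicate block the 3T3-L1 split was 5 higher and 7 lower, where 49.8% of all genes passed. Cebpa, the C/EBP gene that sustains Pparg in fat cells, rose by 3.15 in 3T3-L1 (adjusted p = 1.48e-05, limma) and by 0.76 in DFAT (CEBPA, 0.00143). The Krüppel-like factor gene Klf4 fell in 3T3-L1 with the combination (-0.86, 0.00464) and with rosiglitazone (-1.67, 1.55e-06). The early adipogenic factor genes CEBPD, with the combination (-0.45, 0.000105), and EBF1, with rosiglitazone (-0.53, 4.19e-06), fell in DFAT. With the combination, 4 rose and 1 fell in 3T3-L1, where 5.22% of all genes passed, and 2 rose and 5 fell in DFAT, where 10.2% did. That DFAT total of 7 fell to between 2 and 4 without 5 single libraries, of which combination replicate 1 gave 2, to 3 with no minimum level, and to 4 with no variance trend or only the compared groups. The DFAT rosiglitazone total of 5 fell to 3 without vehicle replicate 1 or rosiglitazone replicate 3, and with only the compared groups. Magnolol raised 2 in 3T3-L1, where 1.23% of all genes passed. With the replicate block 5 rose and 1 fell there, where 4.96% of all genes passed. In DFAT magnolol lowered 2, where 4.22% of all genes passed. Dicoumarol moved 0 in 3T3-L1 and lowered 1 in DFAT, where 0% and 1.94% of all genes passed. Single libraries moved the magnolol counts and the DFAT dicoumarol count.

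**Figure D5:**
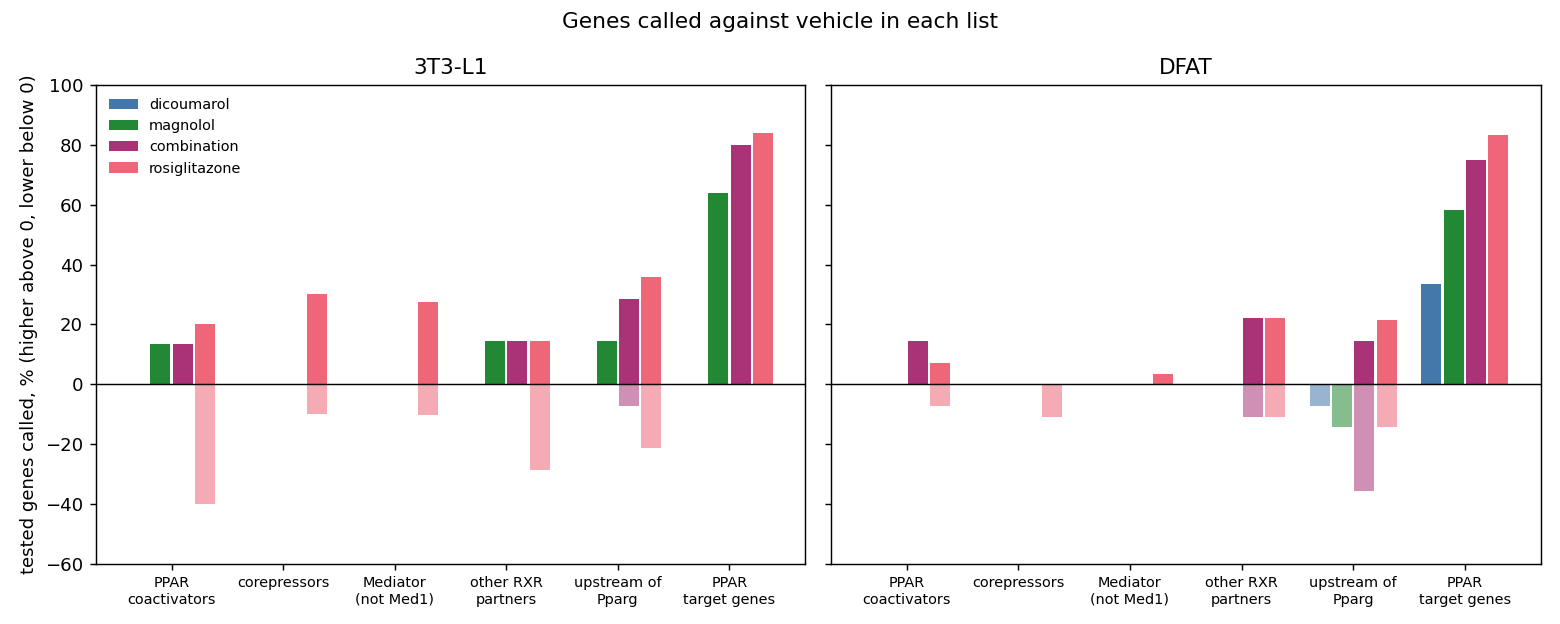
Share of the tested genes of each list (vertical axis, %) with an adjusted p under 0.05 against vehicle in 3T3-L1 (left) and DFAT (right), by treatment; bars above 0 are higher and paler bars below 0 lower than vehicle. PPAR target genes have no bar below 0 and reach 21 of 25 and 20 of 24 with rosiglitazone.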

How the data were processed

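Bulk mRNA libraries (KAPA mRNA HyperPrep, dUTP strand marking, per the labels' protocols) were made from 3T3-L1 and DFAT cells. The deposited values are signal values: gene counts that the authors divided by DESeq2 size factors, in 1 table per species, per the labels. The submitters' processing notes name bcl2fastq 2.19.1.403, STAR, DESeq2 and GRCm38, the last also for the pig libraries. Only 2.18% of 24070 matched mouse genes start where GENCODE M21 (GRCm38) places them, although 95.5% span the same length, so the build of the deposited coordinates is not settled and they are printed as deposited. The promoters come from RefSeq GRCm38.p6 on their own coordinates. Genes were matched by symbol, and all 8 were found in both tables.

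Most low values (up to 20 reads) of each library were whole multiples of 1 read within a tolerance of 0.02. Their share was 81.4% to 82.7% across the 3T3-L1 libraries, while DFAT libraries reached 90.2% to 91.4%. The remaining low values were not whole reads, so no count test was run across genes. Reads were counted for Rxrg in 3T3-L1, which lay under the minimum mean and whose values there were whole reads. Genes with a mean of at least 10 were fitted with limma 3.58.1 (R 4.3.3) on log2(value + 1), 5 groups in 1 model, moderated variance with a trend, two-sided tests, Benjamini-Hochberg adjustment over all tested genes at 0.05, with groups from the labels. The fit was tested on simulated data. Alternatives were pseudocounts of 0.5 and 10, no minimum, quantile normalization, no variance trend, only the compared groups, the replicate block, and each replicate left out. Same-numbered libraries deviated together in 3T3-L1 (correlations of deviations 0.106 to 0.462 over 30 pairs, against a median of -0.142 over 60 differently numbered pairs), and in DFAT among the magnolol, combination and rosiglitazone groups (0.105 to 0.345). The pairing rests on these correlations, since the labels give only the numbers.

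Beside the 8 genes, the text names at most the 2 largest rises and 2 largest falls of each list per comparison with vehicle, and the 3 genes most like Pparg among those with a mean of at least 100. Ppargc1a in 3T3-L1 and PPARGC1B in DFAT were named after their values were seen. The genes and lists were chosen with earlier results of these data known, so no count over a list is independent support. The result of 1 corepressor list gene is not reported here.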

Additional observations from a re-analysis of the deposited data

Results flagged for a closer look

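The response of Rxra, the RXR partner of PPARγ, differed between the cell systems by a test of the difference itself. With the combination, the DFAT log2 fold change minus the 3T3-L1 one was -0.75 (SE 0.178; adjusted p = 0.00575, limma), with Rxra higher than in vehicle in 3 of 3 3T3-L1 libraries and the DFAT groups overlapping. With rosiglitazone the difference was -0.61 (SE 0.178; adjusted p = 0.0082). Leaving out 1 library at a time gave -0.85 to -0.60 and -0.71 to -0.47, and the difference passed each time. The smallest came without DFAT combination replicate 3 (-0.60, adjusted p = 0.027) and without DFAT rosiglitazone replicate 3 (-0.47, adjusted p = 0.037), the libraries of lowest RXRA. Among all genes 11.6% and 38.7% passed. Species, medium and cell source differ between the systems and cannot be told apart.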

How the results depend on the processing

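Over the 140 comparisons of tested genes, both pseudocounts, quantile normalization, no minimum and no variance trend kept each call. The directions of changes that did not pass were not compared. No call reversed under any alternative run. The paired fit with the replicate block changed the counts of genes passing from 0 to 2 for 3T3-L1 magnolol against vehicle, 0 to 1 for 3T3-L1 combination against dicoumarol, 0 to 1 for 3T3-L1 rosiglitazone against combination, 1 to 2 for DFAT combination against vehicle, 0 to 1 for DFAT combination against magnolol, 0 to 1 for the magnolol difference between systems and 1 to 2 for the combination difference. The shares of all genes passing in these blocked fits were 4.96%, 3.62%, 33.3%, 17.8%, 1.96%, 10.9% and 23.0% in the same order. It also moved rosiglitazone against vehicle from 3 to 4 in 3T3-L1 (49.8% of all genes) and from 2 to 3 in DFAT (16.0%). The block turned 10 results into calls and ended none. In DFAT the numbers were not taken to pair vehicle with the treatments, since not every same-number correlation was over 0.1. Those with vehicle were 0.0331 to 0.167 for the combination and -0.306 to 0.0763 for rosiglitazone. There RXRA passed with the block at -0.26 (adjusted p = 0.0189, limma) for the combination and -0.22 (0.042) for rosiglitazone. Between systems, the block added Rxra for magnolol (-0.58, 0.00286) and Ppard for the combination (-0.34, 0.0242). Leaving out 1 library gave 0 to 2 for 3T3-L1 combination against vehicle, 0 being without combination replicate 1, and 1 to 2 for the rosiglitazone difference, where Ppara passed (0.86, adjusted p = 0.0469) without 3T3-L1 rosiglitazone replicate 3. In the other comparisons it changed no count. Fitting only the compared groups ended 1 call, Rxra with rosiglitazone in 3T3-L1. The cause was not tested. Of 66 named list results, leaving out a library ended a call in 67 fits, against 7 with only the compared groups and 6 without the trend. With the block, 13 PPAR target genes rose with dicoumarol in DFAT, where 2.10% of all genes rose. Without it 8 rose, where 0.911% of all genes did. Depth limits Rxrg, whose reads were 1 to 24 a group in 3T3-L1, and the 3T3-L1 Ppara changes (SE 0.391), and the median SE of a fold change over all genes was 0.146 in 3T3-L1 and 0.0992 in DFAT.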
